A study of Zea mays with 6 samples.

Results

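Ferritins, metallothioneins and transporters of zinc and copper store, bind and move metals in plant cells. Their transcripts were compared between maize roots grown with and without peanut. The members were the probe sets of the authors' deposited table whose gene symbol was fer1 or fer2, or whose annotation named a ferritin, a metallothionein, an NRAMP protein or a zinc, copper or metal transporter or tolerance protein. The rule found 8 probe sets of the 12255 in that table and of the 17734 on the array: 2 ferritins, 3 metallothioneins, 2 probe sets similar to zinc transporters and 1 similar to a copper-transporting ATPase. No probe set matched an NRAMP or metal tolerance name, and no match had to be left out as a yellow stripe or ferredoxin entry. Of the 8, 4 carried a gene symbol and 4 were named through weak similarity to an Arabidopsis protein. All 8 had passed the authors' filter, since their table lists only probe sets that did. Every probe set in it reached a signal of 50 on 3 or more arrays. Of the 13116 probe sets tested here, which also did so, it held 12252, so brightness alone does not define that filter.

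Plants of the maize cultivar Nongda108 were raised in a greenhouse in calcareous sandy soil, either beside peanut of the cultivar Luhua14 (intercropped, 3 samples) or without it (monocropped, 3 samples), and roots were taken at the reproductive stage. The basal fertilizer of both groups contained copper and zinc sulfates, and no iron salt is listed in it. Each root RNA sample was hybridised to 1 single-colour Affymetrix maize array, whose probe sets each consist of several short oligonucleotides for one transcript. The labels do not say whether the 3 samples of a group came from separate plants or pots, and the spread behind each p-value may therefore be technical. Signals are on the authors' scaled linear scale, and differences are intercropped minus monocropped on the log2 scale.

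In calcareous soil iron is poorly soluble, and grasses such as maize take it up with secreted chelators called phytosiderophores. Inside the cell, ferritin forms hollow protein shells in plastids that hold iron in a safe form. In maize, fer1 is known for its response to iron excess and fer2 for its response to abscisic acid, a hormone of water stress and seed maturation. Metallothioneins are small cysteine-rich proteins that bind copper and zinc. Transporters in the plasma membrane and in organelle membranes set where these metals go.

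The 6 arrays had median signals between 134.5 and 141.8. The root-preferential gene zrp4 had signals of 208 to 560, and the tonoplast aquaporin gene tip2a of 2154 to 5669. With no other tissue measured, these values do not test the root label. The summed signal of 17 probe sets for chlorophyll-binding proteins and other green tissue markers was 3113 to 3623 in intercropped and 3235 to 3903 in monocropped roots. For 14 probe sets whose annotation held the words zein, tassel or pollen-specific (the reproductive list), the sums were 9046 to 10075 against 9617 to 10152. Of these only ts2 carried a gene symbol, and whether the rest are genes of reproductive tissue was not tested. For 10 probe sets of dividing cells the sums were 2159 to 2494 against 2057 to 2492. Limma called 0 probe sets of these lists, but also 0% of all probe sets, so this count says nothing about tissue make-up. A sum is led by its brightest probe sets, up to 2566 in the reproductive list, and sums of different lists are not comparable. It can also hide single probe sets, such as 1 of dividing cells at 422, 393 and 355 in intercropped against 233, 236 and 259 in monocropped roots. A bulk signal cannot tell fewer cells of a type from less RNA per cell. Monocropped replicate 1 stood apart in the BioB spike-in control, at 1117 on the mean of 3 probe sets against 132 to 438 on the other arrays. The part of this array in the results was tested only by leaving it out.

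Across the comparison, 2 of the 3 metallothionein probe sets were over 2 times higher in intercropped roots, the third and both ferritins had overlapping groups, and the 2 probe sets similar to zinc transporters lay on opposite sides. No member passed limma's test with Benjamini-Hochberg adjustment over all 13116 probe sets tested (members' adjusted p from 0.290 to 0.922), and neither did any other probe set tested (0% called). In the authors' deposited table, from their own permutation test, q-values went down to 0%, and those of the members ran from 23.7% to 78.9%. Among the 8 members 5 had a higher and 3 a lower mean beside peanut. The median of their log2 differences was 0.17, beside 0.01 over all probe sets tested. The median size of the difference without its sign was 0.29 for the members and 0.16 for all probe sets. An unadjusted p under 0.05 was seen for 3 members, 2 higher and 1 lower, where the share over all probe sets was 11.1% (5.60% higher and 5.51% lower). The 3 intercropped arrays lay all above or all below the 3 monocropped arrays for 4 members, 3 higher and 1 lower, where that share was 17.0% over all probe sets (8.29% higher and 8.69% lower). These are descriptions of 8 probe sets, for which no test as a list was made.

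**Figure D1:**
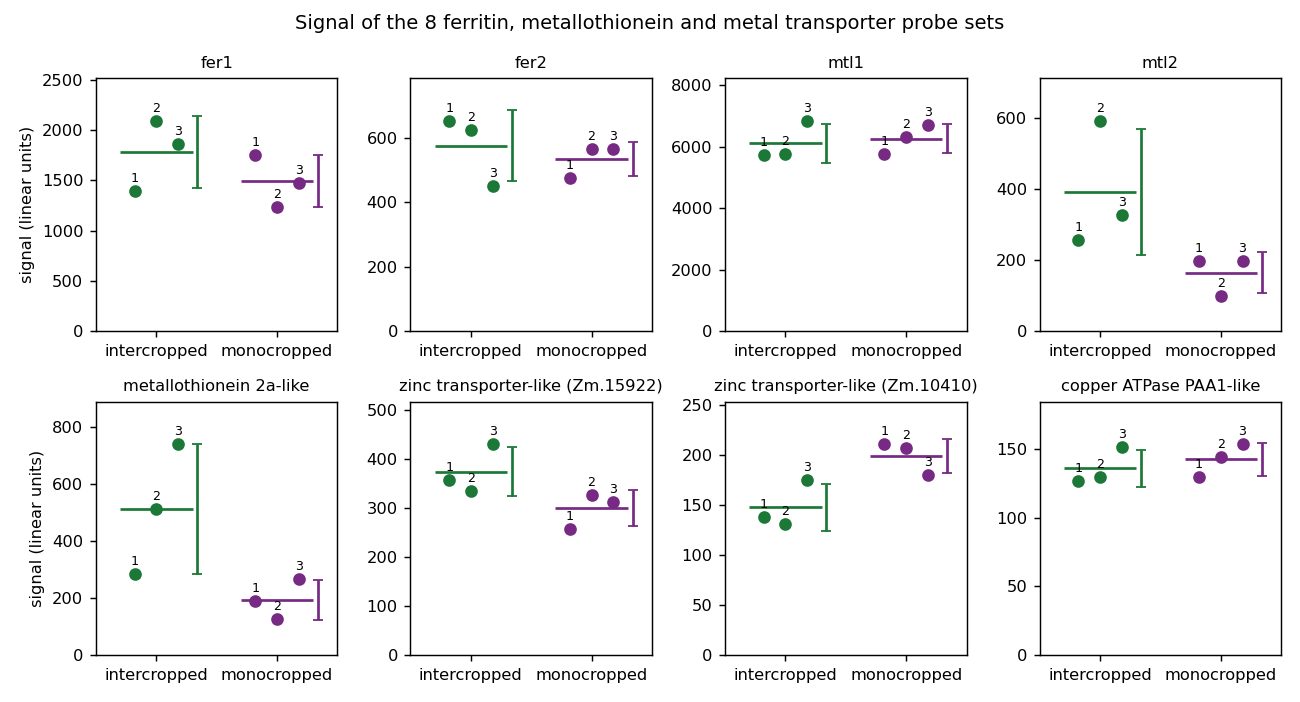
Signal (linear units, each axis from 0) of the 8 probe sets on every array, with replicate numbers, a line for the group mean and a bar for the SD (n = 3). The points of mtl2, the metallothionein 2a-like probe set and both probe sets similar to zinc transporters separate by group, while those of fer1, fer2, mtl1 and the PAA1-like probe set overlap.

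The ferritins gave no difference beyond the spread of the arrays. The signal of fer1, the iron-responsive ferritin, was 1395, 2092 and 1855 in intercropped replicates 1 to 3 and 1752, 1236 and 1476 in the monocropped ones. Intercropped replicate 2 was the highest array and monocropped replicate 2 the lowest, and the other 4 values interleaved. The mean signal of fer1 was 1781 ± 354 against 1488 ± 258 (SD, n = 3), a log2 difference of 0.25 ± 0.19 (SE; 95% interval -0.19 to 0.69; limma adjusted p = 0.669). Without both arrays numbered 2 the log2 difference of fer1 was 0.00028.

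The signal of fer2 was 653, 625 and 449 in intercropped and 475, 565 and 564 in monocropped replicates 1 to 3. The intercropped group held the 2 highest values of this gene and also the lowest. Its log2 difference was 0.09 ± 0.18 (95% interval -0.32 to 0.50; limma adjusted p = 0.886). As ratios of intercropped over monocropped signal, the interval of fer1 spanned 0.879-fold to 1.62-fold and that of fer2 0.801-fold to 1.42-fold. A further probe set that the platform annotation gives to fer2, absent from the authors' filtered table, had signals of 77.8, 102 and 123 against 109, 76.5 and 93.5, with a log2 difference of 0.11 ± 0.22 (limma adjusted p = 0.890). Both fer2 probe sets thus had a small difference with overlapping groups, but their arrays did not follow the same order: intercropped replicate 3 was lowest on one and highest on the other.

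The annotation matches between 13 and 15 probes to each listed fer1 clone and between 14 and 15 to each listed fer2 sequence. For fer1 it also lists 1 probe as binding the RefSeq transcript of the gene, under cross-hybridisation. Among 1362 tested probe sets with a gene symbol outside the members, 12 had a Pearson correlation with fer1 above 0.9 over the 6 arrays. The 3 highest were AY109550 (r = 0.96), cc3, a putative cystatin that inhibits cysteine proteases (r = 0.95), and AY107012 (r = 0.94). The first 2 were dim, with signals of 50.1 to 83.9 and 61.8 to 83.9, and AY107012 varied little, from 177 to 209. With 6 arrays, all shared by the 2 genes compared, this likeness is a description.

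The metallothioneins did not form 1 pattern. The type 1 gene mtl1 had signals of 5731, 5760 and 6845 in intercropped and 5755, 6314 and 6713 in monocropped roots. The groups overlapped over nearly their whole range. Its log2 difference of -0.04 ± 0.10 had the narrowest interval of the 8 members, from -0.27 to 0.19 (limma adjusted p = 0.922), which spans 0.832-fold to 1.14-fold. The highest signal on any array was between 7876 and 9042, and whether the probes of mtl1 were near saturation was not tested. The annotation matches 13 probes to mtl1 and lists 7 as also binding another transcript.

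The gene mtl2 is annotated as a class II metallothionein of the Ec type, a form known in wheat from the embryo, where it binds zinc. Its signals were 257, 594 and 327 in intercropped roots and 198, 99.07 and 198 in monocropped roots. All intercropped arrays lay above all monocropped ones, and the 2 extremes were the arrays numbered 2. The mean was 393 ± 178 against 165 ± 57.1 (SD, n = 3), a log2 difference of 1.23 ± 0.38 (95% interval 0.34 to 2.12; unadjusted p = 0.0135; limma adjusted p = 0.331), or 2.34-fold. The log2 difference was 0.88 without intercropped replicate 2, 0.90 without monocropped replicate 2, 0.55 without both, and 1.396 without monocropped replicate 1.

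The probe set of mtl2 is of the x type, in which some probes can also bind other sequences, and between 11 and 15 of its probes matched the listed mtl2 transcripts. Another probe set that the platform annotation gives to the same gene was dim. Its signals were 32.7, 44.5 and 44.4 in intercropped and 47.8, 46.1 and 44.4 in monocropped roots, all below 50, so it was not tested. The higher intercropped signals of mtl2 thus rest on 1 probe set.

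The array order of mtl2 was set beside that of 3 genes of late seed maturation, picked after their values were seen. These were dhn1, a dehydrin, with 1043, 3686 and 1919 against 654, 129 and 657, mlg3, a group 3 LEA protein, with 114, 980 and 302 against 34.7, 20.6 and 102, and esp5, an embryo specific LEA protein, with 133, 695 and 128 against 48.7, 27.9 and 93.1. In these genes, as in mtl2, intercropped replicate 2 was the highest array, monocropped replicate 2 the lowest, and the groups did not overlap. As the 3 genes were picked with their values known, this likeness does not test a link to mtl2. The share of all probe sets with the same 2 extreme arrays was not computed. The same 2 arrays were also the extremes of fer1 and of the wall protein gene bk2, whose groups overlapped. The log2 differences of dhn1, mlg3 and esp5 were larger than that of mtl2, at 2.35 ± 0.70, 2.95 ± 0.84 and 2.18 ± 0.71 in this order (limma adjusted p from 0.287 to 0.341). This contrast with mtl2 was not tested. Whether the plants or the arrays numbered 2 account for the spread was not tested.

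**Figure D2:**
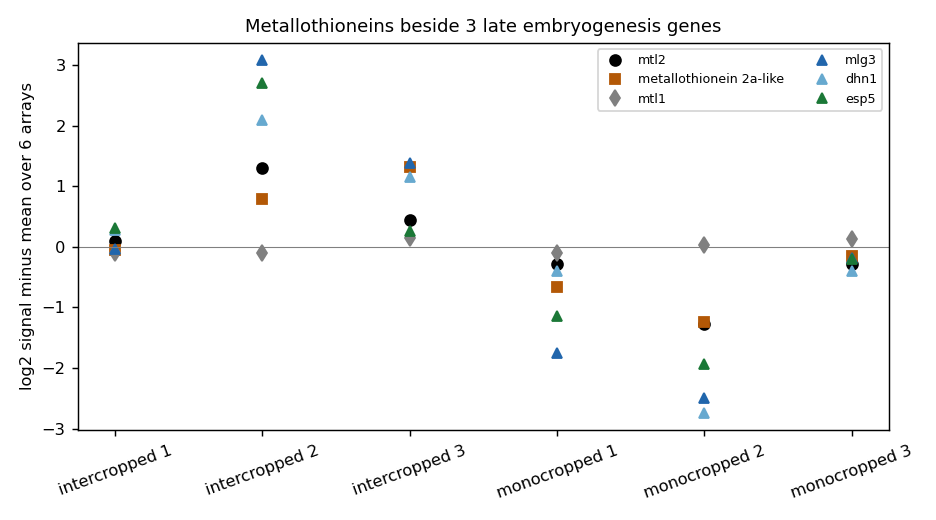
Log2 signal minus its mean over the 6 arrays (vertical axis) for mtl1, mtl2, the metallothionein 2a-like probe set and the late embryogenesis genes mlg3, dhn1 and esp5, by array (horizontal axis). The points of mtl2 and of the late embryogenesis genes are highest in intercropped replicate 2 and lowest in monocropped replicate 2, over a smaller range for mtl2. The late embryogenesis genes were picked with their values known, so this likeness is not a test. The metallothionein 2a-like probe set is highest in intercropped replicate 3 and lowest in monocropped replicate 2, while mtl1 stays near 0 on every array.

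The largest log2 difference among the members was that of the probe set Zm.15850.1.S1_at, weakly similar to metallothionein 2a of Arabidopsis, a copper-binding protein. Its signals were 285, 512 and 741 in intercropped and 188, 125 and 266 in monocropped replicates 1 to 3. The groups did not overlap, but intercropped replicate 1 and monocropped replicate 3 were close to each other. The mean was 512 ± 228 against 193 ± 70.6 (SD, n = 3), a log2 difference of 1.37 ± 0.39 (95% interval 0.45 to 2.29; unadjusted p = 0.0096; limma adjusted p = 0.290), or 2.59-fold. Its log2 difference fell to 1.05 in the fit that omitted intercropped replicate 3 and reached 1.74 in the fit that omitted intercropped replicate 1, where the limma adjusted p was 0.111. In the authors' deposited table its q-value was 23.7%, and that of mtl2 was 25.7%.

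The annotation places 2 further probe sets, without a protein name, in the same UniGene cluster as this metallothionein 2a-like transcript, one with intercropped higher and one with intercropped lower. Zm.15424.1.S1_at had signals of 671, 572 and 489 against 436, 409 and 474, a log2 difference of 0.38 ± 0.15 (95% interval 0.03 to 0.74; unadjusted p = 0.0382; limma adjusted p = 0.419). Zm.15424.1.S1_s_at had 430, 482 and 499 against 610, 501 and 521, a log2 difference of -0.21 ± 0.13 (95% interval -0.52 to 0.10; limma adjusted p = 0.621). All 3 probe sets had groups that did not overlap, 2 with intercropped higher and 1 with intercropped lower. The interval of Zm.15424.1.S1_at met that of Zm.15850.1.S1_at, and that of Zm.15424.1.S1_s_at did not. The difference between probe sets was not tested, and the cluster was assigned through listed accessions, not through matching probes.

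**Figure D3:**
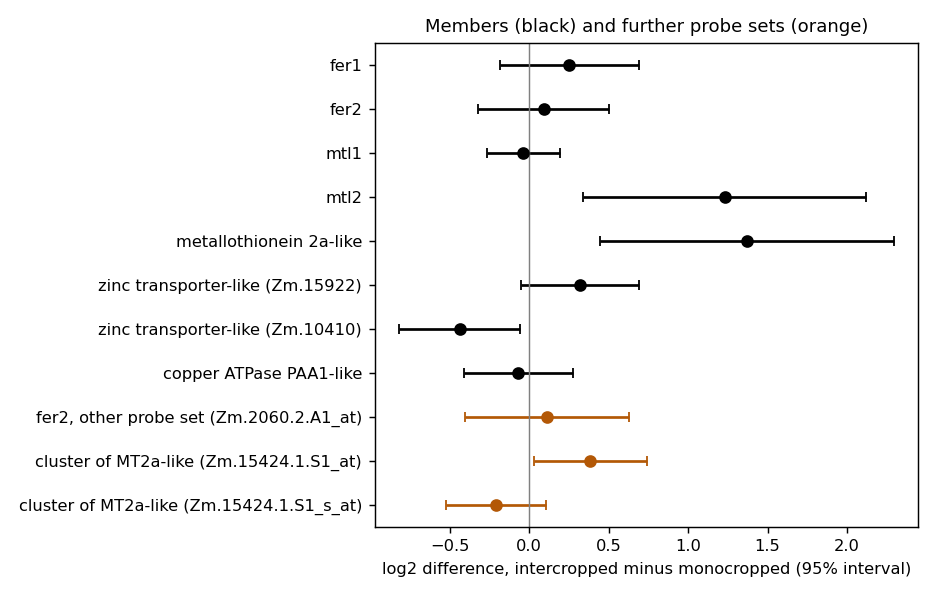
Log2 difference between intercropped and monocropped roots (horizontal axis) with its 95% interval from limma, for the 8 members (black) and for 3 further tested probe sets of the same gene or UniGene cluster (orange). The intervals of mtl2 and the metallothionein 2a-like probe set lie above 0, from 0.34 and 0.45 upward, that of the orange Zm.15424.1.S1_at lies above 0.03, and that of one zinc transporter-like probe set lies below -0.06, all before adjustment for the number of probe sets tested.

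The probe set Zm.10410.1.S1_a_at, weakly similar to a putative zinc transporter of Arabidopsis, had signals of 138, 131 and 175 in intercropped and 211, 207 and 180 in monocropped roots. Every intercropped array lay below every monocropped one, with the arrays numbered 3 nearly equal. The mean was 148 ± 23.6 against 199 ± 16.8 (SD, n = 3), a log2 difference of -0.44 ± 0.16 (95% interval -0.82 to -0.06; unadjusted p = 0.0290; limma adjusted p = 0.390). In the authors' deposited table its q-value was 34.1%.

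The other probe set of this kind, Zm.15922.1.S1_at, is weakly similar to a different putative zinc transporter of Arabidopsis, and its signals were 358, 336 and 431 in intercropped and 258, 328 and 313 in monocropped roots. Its groups were separated by a narrow gap, between 336 and 328, and they overlapped after quantile normalization and with array medians set equal. The mean was 375 ± 49.8 against 299.8 ± 36.7 (SD, n = 3), a log2 difference of 0.32 ± 0.16 (95% interval -0.05 to 0.69; limma adjusted p = 0.515). The 2 probe sets are described side by side, and a difference between them was not tested.

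Zm.4156.1.A1_at is weakly similar to PAA1, an ATPase that in Arabidopsis carries copper into plastids. It had 127, 130 and 152 in intercropped and 130, 145 and 154 in monocropped roots. The groups overlapped over most of their range. The log2 difference was -0.07 ± 0.15 (95% interval -0.41 to 0.27; limma adjusted p = 0.9003).

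**Figure D4:**
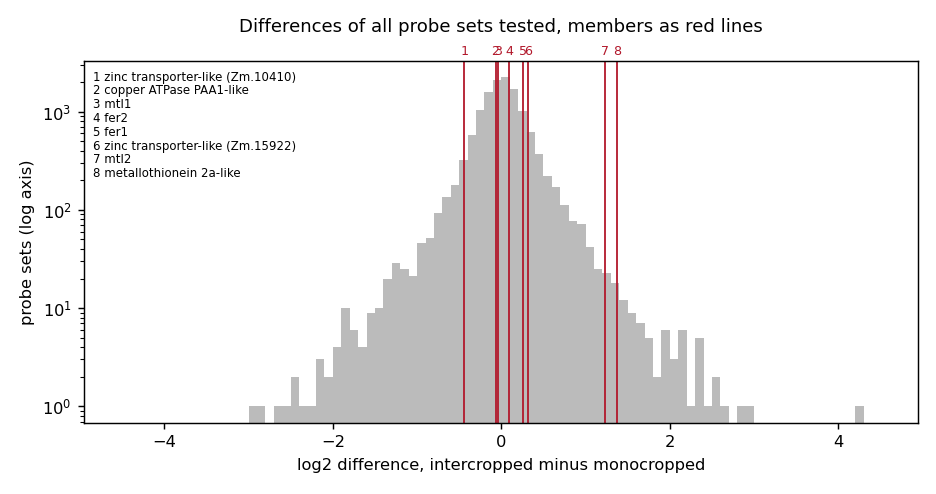
Log2 differences (horizontal axis) of all 13116 probe sets tested, as a histogram with a log vertical axis, with the 8 members as numbered red lines. The metallothionein 2a-like probe set lies at percentile 99.5 and mtl2 at percentile 99.3 of all differences, the lower of the zinc transporter-like probe sets at 6.42, and the other 5 between 36.9 and 87.5.

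A comparison list taken by name, outside the members, held 8 probe sets, and it was not uniform. Of these 4 entered through an old title of phytochelatin synthetase: bk2 (brittle stalk2), the related gene Bk2L3 with 2 probe sets, and 1 further probe set known here by that title alone. The genes bk2 and Bk2L3 are known as COBRA-like wall proteins, not as metal-binding enzymes. The other 4 had names of metal chelation, transport or reduction: DMAS1, which makes the phytosiderophore deoxymugineic acid, the phytosiderophore transporter gene ys1, the ferric-chelate reductase gene fcr2, and a probe set similar to nicotianamine synthase, which makes a metal chelator. The annotation does not say whether fcr2 serves iron uptake in maize roots. Limma called 0 of the 8 (adjusted p from 0.398 to 0.929), where the share over all probe sets was 0%.

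All 4 probe sets with the phytochelatin synthetase title had a higher mean in intercropped roots, and the other 4 had a lower one, a split seen only after the values were known. The 2 Bk2L3 probe sets are not separate genes. Their signals in intercropped roots were nearly the same, at 1460, 1219 and 1116 on one and 1460, 1224 and 1097 on the other. Over the 8 together the median log2 difference was -0.01. The log2 differences with the title were 0.88 ± 0.33 for bk2, 0.35 ± 0.19 and 0.34 ± 0.19 for Bk2L3 and 0.05 ± 0.14 for the unnamed probe set. Those of the other 4 were -0.29 ± 0.12 for DMAS1, -0.37 ± 0.21 for ys1, -0.44 ± 0.29 for the nicotianamine synthase-like probe set and -0.07 ± 0.13 for fcr2. The groups of fcr2 and of the nicotianamine synthase-like probe set overlapped. The latter had signals of 128, 135 and 145 in intercropped and 157, 296 and 133 in monocropped roots, with monocropped replicate 2 far above the rest. None of these differences passed the adjusted test.

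The 2 with the smallest p were bk2 and DMAS1. The signals of bk2 were 255, 408 and 386 against 279, 118 and 196, with overlapping groups (limma adjusted p = 0.398). Those of DMAS1 were 901, 802 and 879 in intercropped against 1029, 951 and 1177 in monocropped roots (limma adjusted p = 0.451). The groups of DMAS1 did not overlap, with intercropped lower, and neither did those of ys1, at 121, 187 and 203 against 227, 212 and 209. An unadjusted p under 0.05 was seen for 1 of the 8, bk2, beside 11.1% of all probe sets. Groups that did not overlap were seen for 2 of the 8, both lower, beside 17.0% of all probe sets in either direction and 8.69% lower.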

How the data were processed

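Root RNA of 6 samples was measured on 1 single-colour Affymetrix maize array each. The authors deposited an intensity per probe set, already summarised and scaled; the submitters' processing notes name GCOS 1.4, and the algorithm is not given in the sources used here. The authors' filtered table holds log2 of these values (largest difference 3.6e-15), and every probe set in it reaches 50 on 3 or more arrays. From an unpaired SAM test with 100 permutations the authors deposited a score, a log2 difference, a fold change (linear ratio) and a q-value in percent, per the file headers.

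Here 179 control probe sets were left out, and log2 of the intensity was taken with a floor of 1. Probe sets with at least 50 on 3 of 6 arrays (13116) were fitted with limma 3.58.1 in R 4.3.3 (eBayes with a mean-variance trend). Two-sided p-values were adjusted by Benjamini and Hochberg's method, and 0.05 was the threshold. The fit was also run on simulated data with independent noise for each probe set. Such data cannot show how the fit behaves where whole arrays deviate, and no result given here rests on that run. The replicate numbers are not said to pair samples, so no pairing was used in the main fit. Deviations of same-numbered arrays had r = 0.27, -0.07 and -0.0041, where differently numbered arrays ran from -0.30 to 0.33.

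The members and lists were chosen with earlier results of these data known. The rule for named genes gave all fer1 and fer2 probe sets, per class the 2 smallest p and the highest signal, the 3 symbols most like fer1, and the 2 smallest p of the comparison list. Gene names come from the authors' annotation; the 4 with a gene ID were all found in the reference table of assembly Zm-B73-REFERENCE-NAM-5.0. Alternatives covered scaling, filters, the pseudocount, the variance prior, a replicate block and left-out arrays.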

Additional observations from a re-analysis of the deposited data

How the results depend on the processing

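No member was called under any of 15 alternatives (lowest adjusted p = 0.111), and of the 204 comparisons with an alternative 195 gave the same outcome. That means the same direction and side of the threshold for a gene, a count within 1.5 times, and for the median a shift below its spread between replicates (SD 0.111). The 195 overstates how much was tested. Changing the filter or the variance prior, or adding the block, leaves each difference as it was, so no direction could turn. Counts that stayed at 0 are also among the 195. Over all probe sets, 1 was called with log2 of the signal plus 32, and between 0 and 34 with 1 array left out, the 34 without intercropped replicate 1; the cause was not tested. The difference of fer2 turned to -0.0089 without intercropped replicate 1 (up to 0.26 with another array left out). That of mtl1 ran from -0.12 to 0.015 with 1 array left out and was 0.011 without both arrays numbered 2. Leaving out both arrays numbered 2, chosen after seeing the data, also gave a median of 0.038 and 1 member at an unadjusted p under 0.05, with 2 samples a group. With 1 array left out the median ran from 0.075 to 0.21, and fer1 from 0.13 (without monocropped replicate 2) to 0.42 (without intercropped replicate 1). With 1 array left out, 2 or 3 members had an unadjusted p under 0.05. The shares over all probe sets, for unadjusted p under 0.05 and for groups that did not overlap, were computed only in the main fit. No alternative therefore has such a share beside its count of members. Quantile normalization and equal array medians left 3 members whose groups did not overlap. With the replicate number as a block the lowest adjusted p of a member was 0.280 and 2 had an unadjusted p under 0.05; intercropped replicate 3 deviated most like monocropped replicate 2 (r = 0.33), so not every array was closest to its own number. The number of arrays limits the precision: the median standard error of a member's difference was 0.17.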

Other observations

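Probe sets with titles close to the rule, chosen after the tables were opened, gave these values. Zm.12619.1.A1_at, weakly similar to a metal ion transporter of Arabidopsis, had signals of 993, 1371 and 869 in intercropped and 1679, 1777 and 1461 in monocropped roots. All intercropped arrays lay below all monocropped ones, at -0.63 ± 0.18 on the log2 scale (limma adjusted p = 0.291). Zm.17187.1.A1_at, weakly similar to a copper binding protein, had 745, 846 and 1084 against 664, 260 and 342, with no overlap and intercropped higher by 1.18 ± 0.34 on the log2 scale (limma adjusted p = 0.287). The gene gpm4, similar to a copper homeostasis factor, was measured by 2 probe sets with overlapping groups, at log2 differences of -0.19 ± 0.13 and -0.15 ± 0.17 (limma adjusted p = 0.654 and 0.803).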
